A study of Homo sapiens with 12 samples.

Results

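The transcriptional response to EWS-FLI1 was examined in cells that carried wild-type (WT) ARID1A. The cells were HEK-293T, a human embryonic kidney line, with the endogenous ARID1A gene knocked out, and WT ARID1A was put back by overexpression. These 4 libraries of the 12 in the series were chosen by their labels: 2 had received 2 µg of an EWS-FLI1 expression plasmid (pcDNA) and 2 the empty vector, and growth went on for 48 h. The latter 2 are called the controls below. The remaining 8 libraries came from the same knockout cells with an empty vector in place of ARID1A (4 libraries, called no ARID1A or without ARID1A for the lack of an added gene) or with ARID1A lacking the segment IDR1b (ΔIDR1b, 4 libraries), each with EWS-FLI1 or its own empty vector, 2 libraries a group. The study's stated question was what IDR1b contributes to gene regulation by EWS-FLI1, and the WT cells are its reference state.

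All groups thus share the ARID1A knockout, and both introduced proteins were overexpressed. The labels name 1 knockout line, do not say whether it is a single clone, and do not say whether the repeats came from separate cultures, so p-values here measure the spread between these samples, which may be technical. HEK-293T markers were present in the WT libraries: VIM lay between 560 and 678 CPM (counts scaled to an equal library size), KRT8 between 285 and 402, KRT18 between 67.5 and 84.6, NEFL between 66.2 and 80.8, and the kidney factor PAX2 between 8.13 and 10.2. NEFM, also on that marker list, had at most 0.0747 CPM in any of the 4.

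EWS-FLI1 is the fusion protein of most Ewing sarcomas. It joins the low-complexity N-terminal part of EWSR1 to the ETS-type DNA-binding domain of FLI1, binds ETS sites with a GGAA core and GGAA repeats, and is known to recruit the BAF (SWI/SNF) chromatin remodelling complex. ARID1A is the large DNA-binding subunit of one form of that complex. Heat-shock genes, which take up much of what follows, encode chaperones that keep proteins folded, and their transcription is driven by heat-shock factors that bind repeated GAA units in promoters.

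The introduced genes matched the labels. FLI1 (chromosome 11, 128686535 to 128813267, on GRCh38, the build of every gene position given here) had 1 and 0 counts in the controls and 48823 and 45668 counts in the EWS-FLI1 libraries (ratio 95700, 95% counting interval 17200 to 3780000). EWSR1 (chromosome 22, 29268009 to 29300525) stood at 495 and 559 CPM in the controls and at 3728 and 3462 CPM under the fusion, a 6.82-fold ratio, and its counts hold both the endogenous gene and the fusion. ARID1A stood at 2038 and 2074 CPM in the controls and at 1843 and 2291 CPM under the fusion, a ratio of 1.01, and WT cells with the empty vector had 13.2 times the level of the knockout cells. ARID1A RNA was still counted in the 4 libraries called no ARID1A, at 147 to 165 CPM (1819 to 2213 counts), and the counts do not show whether protein is made from it. FLI1 and EWSR1 are left out of the gene counts below unless stated.

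The 2 WT libraries with EWS-FLI1 differed from each other more than the repeats of any other group. The chi-square of their counts was 12.1 per degree of freedom, against 3.02 to 6.13 in the other 5 groups, and the median absolute log2 difference between repeats was 0.3, against 0.177 to 0.211. Across genes, which are not independent replicates, that difference had a correlation of 0.345 with the GC content of transcripts, against -0.116 to 0.188 in the other groups. Library totals of all 12 ran from 11702251 to 14445379 counts, so 3 counts, the limit that a count of 0 allows, came to at most 0.259 CPM.

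A total of 20377 genes were tested with the quasi-likelihood test of edgeR on all 12 libraries, with p-values adjusted by the Benjamini-Hochberg method. In WT cells 45 genes passed an adjusted p under 0.05 (0.221% of those tested), 31 higher (0.152%) and 14 lower (0.0687%) with EWS-FLI1. Without FLI1 and EWSR1, 43 remained, 29 higher and 14 lower, and 22 of them had a log2 fold change of at least 1 in size. The libraries of the 2 groups did not overlap in any of the 43, which was also so for 29.9% of all genes tested. Leaving out repeat 1 with EWS-FLI1 raised the number of other genes called from 43 to 228, and leaving out repeat 2 raised it to 126. Only 35 genes were in both of these (15.4% of the first and 27.8% of the second), and all 35 were among the 43. With either library left out, the lone remaining one is assumed to vary like the other groups. The count with FLI1 and EWSR1 included fell from 45 to 25 and 24 without repeat 1 or 2 of the empty vector. Fitted to the 4 WT libraries alone, it was 26, all among the 45, and the calls lost included HSP90AA1, HSPA8, HSPB1, CHORDC1, FOS and CCN1.

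**Figure D1:**
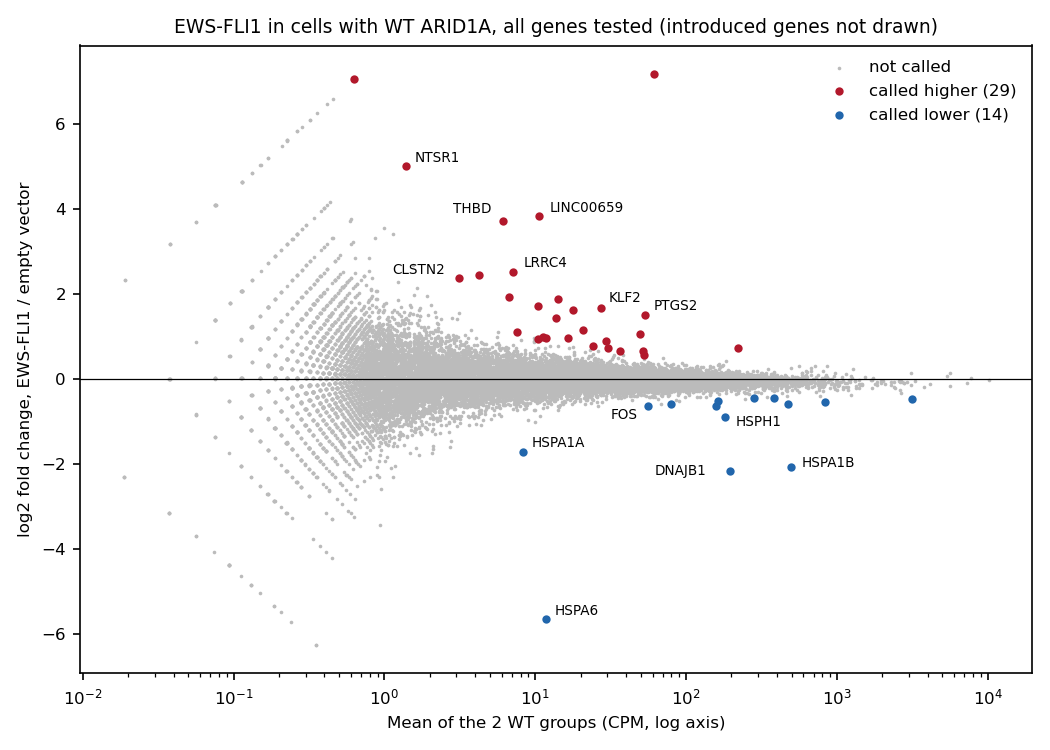
Log2 fold change with EWS-FLI1 in WT cells (y axis) against the mean level of the 2 WT groups in CPM (x axis, log scale) for all genes tested except FLI1, EWSR1 and ARID1A. Each point is a gene, red for the 29 called higher and blue for the 14 called lower; the 2 red points near a log2 of 7 are ENSG00000215835 and ENSG00000231393, and HSPA6 is the lowest blue point.

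Several of the genes that rose encode receptors and other membrane proteins. NTSR1 (chromosome 20, 62708836 to 62762771), a G protein-coupled receptor for the peptide neurotensin, had 2 and 0 counts in the controls and 33 and 39 counts under the fusion. It was thus near the detection limit without the fusion and at 2.48 and 2.96 CPM with it, and the ratio of counts was 36.5 (95% counting interval 9.74 to 307; adjusted p = 2.79e-04). THBD (chromosome 20, 23045633 to 23049672), thrombomodulin, which binds thrombin on the surface of blood vessel cells, was at 1.12 and 0.598 CPM in the controls and at 11.1 and 11.8 CPM under the fusion (log2 fold change 3.72, SE 0.390, adjusted p = 1.06e-07). Both of its EWS-FLI1 libraries lay close together and far above both controls.

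LRRC4 (chromosome 7, 128027071 to 128032107), a leucine-rich adhesion protein of synapses, stood at 2.38 and 1.79 CPM in the controls and at 10.8 and 13.4 CPM under the fusion (log2 fold change 2.53, SE 0.297, adjusted p = 1.23e-06). CLSTN2 (chromosome 3, 139935185 to 140577397), a calsyntenin of neuronal membranes, stood at 0.893 and 1.12 CPM and at 5.12 and 5.38 CPM (log2 fold change 2.37, SE 0.420, adjusted p = 0.00227). Both went from a few CPM or less to clearly counted levels, and the largest adjusted p of CLSTN2 over all alternatives was 0.132. Smaller rises were called for NGFR, the low-affinity neurotrophin receptor (log2 fold change 1.17), EPHB3, an ephrin receptor (0.97), FZD8, a Wnt receptor (0.79), and the transporter SLC35F2 (0.58). Of the exon bases of NGFR, 27.2% overlap other genes, and since fragments that overlap several genes were not counted, its level is that of the remaining part. The calls of CLSTN2, EPHB3, FZD8 and SLC35F2 were lost when either control was left out, that of NGFR without control 2, and those of FZD8 and SLC35F2 also without 1 EWS-FLI1 library (repeat 2 and repeat 1). FZD8 was also lost without either ΔIDR1b control.

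Others encode enzymes and signalling proteins. PTGS2 (chromosome 1, 186671791 to 186680922), cyclooxygenase-2, the inducible enzyme of prostaglandin synthesis, was at 28.4 and 26.9 CPM in the controls and at 87.4 and 71.4 CPM under the fusion (log2 fold change 1.52, SE 0.138, adjusted p = 3.33e-09). SGK1 (chromosome 6, 134169248 to 134318112), a serum- and glucocorticoid-regulated kinase, was at 7.22 and 10.3 CPM and at 29.4 and 24.9 CPM (log2 fold change 1.63, SE 0.194, adjusted p = 1.69e-06). PTGS2 was the most abundant of the 12 largest rises in CPM.

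RND1 (chromosome 12, 48857145 to 48865870), a small GTPase that acts on the actin cytoskeleton, was at 7.44 and 4.71 CPM in the controls and at 19.6 and 25.1 CPM under the fusion (log2 fold change 1.88, SE 0.227, adjusted p = 2.13e-06). CYP4F22 (chromosome 19, 15508525 to 15552317), a fatty acid hydroxylase known for its part in skin ceramides, was at 4.09 and 5.53 CPM and at 14.8 and 17.1 CPM (log2 fold change 1.73, SE 0.223, adjusted p = 8.00e-06). PHOSPHO1 (chromosome 17, 49223366 to 49230787), a phosphatase of skeletal mineralization, was at 1.34 and 1.27 CPM and at 7.53 and 6.82 CPM (log2 fold change 2.45, SE 0.358, adjusted p = 8.23e-05). In all 3 the lower EWS-FLI1 library exceeded the higher control by more than 2-fold. Further calls of this kind were RASIP1, a Ras-interacting protein of vessel formation (log2 fold change 1.43), TRIB3, a stress-induced pseudokinase (0.74), and MYO10, a myosin of filopodia (0.66). TRIB3 was at 25.2 and 20.0 CPM in the controls and at 32.5 and 43.1 CPM under the fusion. The calls of TRIB3 and MYO10 were not made without either control or without repeat 2 of EWS-FLI1.

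Among transcription factors, KLF2 (chromosome 19, 16324826 to 16328685), a zinc-finger factor known from blood flow sensing, had the largest rise, from 13.99 and 11.9 CPM with the empty vector to 34.0 and 48.6 CPM under the fusion (log2 fold change 1.67, SE 0.185, adjusted p = 3.40e-07). ZNF382 (log2 fold change 1.11), IER2 (1.06), JUNB, a subunit of the dimeric factor AP-1 (0.74), and IRF2BPL (0.66) were also called higher, as was ZFP36, which binds AU-rich mRNAs and speeds their decay (0.90). IER2 went from 30.4 and 33.9 CPM to 57.2 and 77.1 CPM, and ZFP36 from 22.3 and 19.1 CPM to 37.0 and 39.95 CPM, without overlap of the groups in either. Other genes overlap 52.2% of the exon bases of IER2, 15% of those of IRF2BPL and 14.2% of those of JUNB. The remaining named rises were RUBCNL, an autophagy protein (0.99), ISM2 (0.97) and APOLD1 (0.95), an endothelial gene with 25.6% of its exon bases shared with DDX47. Leaving out either control ended the calls of ZNF382, IRF2BPL, RUBCNL, ISM2 and APOLD1, leaving out control 2 those of JUNB and ZFP36, and leaving out repeat 2 of EWS-FLI1 that of IRF2BPL. ZNF382 was also not called with limma.

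Noncoding RNAs were also among the largest rises. LINC00659 (chromosome 20, 62772980 to 62776996) was at 2.16 and 0.598 CPM in the controls and at 18.6 and 20.9 CPM under the fusion (log2 fold change 3.83, SE 0.358, adjusted p = 6.56e-09). It lies next to NTSR1 on the opposite strand, with 10209 bases between the genes and their starts 68.2 kb apart. Besides HSPA1A and HSPA1B, they were the only pair among the 45 called genes whose starts lay within 100 kb of each other. KDM7A-DT (chromosome 7, 140177184 to 140179640), the divergent transcript beside the histone demethylase gene KDM7A, was at 3.42 and 2.09 CPM and at 9.79 and 11.4 CPM (log2 fold change 1.94, SE 0.263, adjusted p = 2.05e-05). KDM7A itself was at 51.3 and 60.7 CPM and at 71.2 and 63.1 CPM (log2 fold change 0.26, SE 0.131, adjusted p = 0.772), so the transcript passed the test and its neighbour did not.

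**Figure D2:**
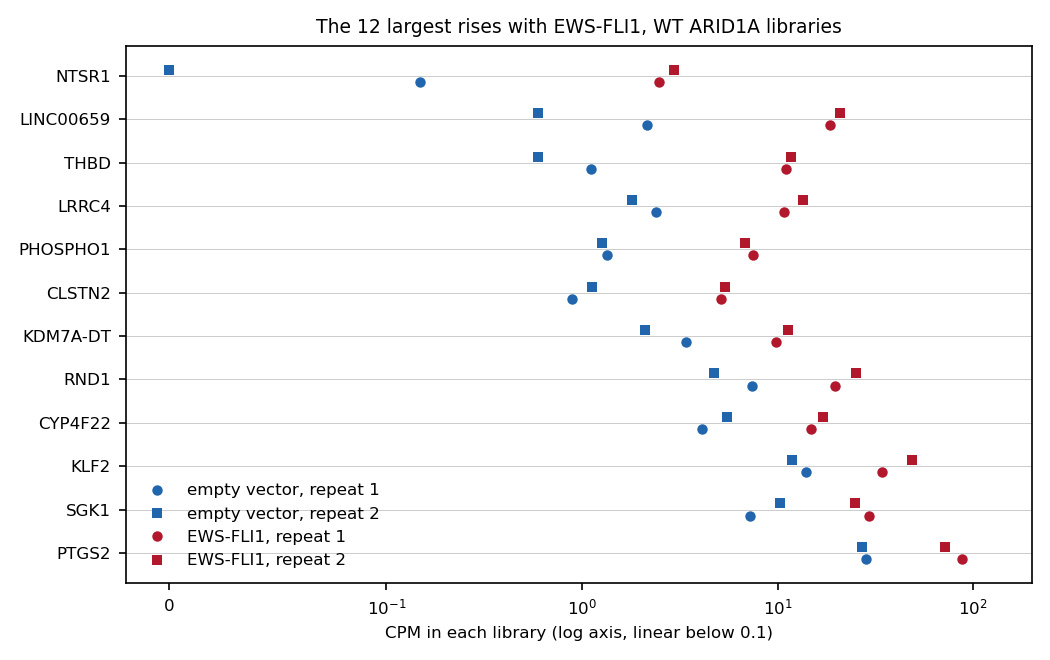
CPM in each WT library (x axis, log scale with a linear part below 0.1) for the 12 named genes with the largest rises (y axis). Blue marks are the empty vector, red marks EWS-FLI1, circles repeat 1 and squares repeat 2; the red marks lie to the right of the blue marks in all 12 genes.

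A pair of calls carried only Ensembl identifiers. ENSG00000215835 (chromosome 1, 166275629 to 166277597) had 8 and 14 counts in the controls and 1480 and 1717 counts under the fusion (log2 fold change 7.19). Over 1971 aligned bases it is 96.2% identical to a transcript of EWSR1, so fragments of the introduced fusion cannot be told apart from its own RNA by count. With EWS-FLI1 it was at 111 and 130 CPM in WT, 67.2 and 62.0 CPM in ΔIDR1b, and 52.3 and 56.2 CPM without ARID1A. It is nevertheless kept among the 43 called genes and the 29 called higher. ENSG00000231393 had 0 counts in both controls and 6 and 27 counts under the fusion. This is at least 11.1-fold more than 3 counts in the control pair together. Its call was lost in 14 of 23 alternatives, 9 of which left out a single library.

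The genes that fell were mostly chaperones. Of 30 heat-shock genes tested, 9 were called lower and 0 higher (edgeR; 13 were lower and 0 higher at an unadjusted p under 0.05, DESeq2 called 7 lower and 0 higher, and limma 9 lower and 0 higher), or 30% of the list against 0.0687% of all genes called lower. All 30 had a negative log2 fold change, and 29 did with DESeq2 size factors or upper-quartile scaling. Without either EWS-FLI1 library 31 genes of the list were tested, and 27 had a negative and 4 a positive value. In the main fit the list's median was -0.26, against a median of 0.00 over all genes tested. The 9 calls became 10 and 9 without repeat 1 or 2 of EWS-FLI1, and 5 without either of the empty-vector libraries. Earlier results of these data had shown falls of heat-shock genes, so the list's direction is not independent evidence. The list's summed level was 14100 and 13320 CPM in the controls and 11000 and 10050 CPM under the fusion.

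HSPA6 (chromosome 1, 161524540 to 161526894), an HSP70 that is made almost only under stress, fell furthest. It had 287 and 335 counts in the controls and 3 and 9 counts under the fusion, or 21.4 and 25.0 CPM against 0.226 and 0.682 CPM (log2 fold change -5.65, SE 0.313, adjusted p = 3.76e-15). The level with EWS-FLI1 was thus 2.00% of the control level and close to the detection limit. HSPA7, a closely related pseudogene, was barely counted, at 0.149 and 0.896 CPM in the controls and 0 in both libraries with EWS-FLI1, and did not pass the filter on low counts.

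DNAJB1 (chromosome 19, 14514769 to 14560391), the HSP40 partner of HSP70, was at 342 and 292 CPM in the controls and at 69.1 and 73.5 CPM under the fusion (log2 fold change -2.15, SE 0.114, adjusted p = 1.19e-15). HSPA1B (chromosome 6, 31827738 to 31830254), a main stress-inducible HSP70, was at 869 and 732 CPM and at 192 and 192 CPM (log2 fold change -2.06, SE 0.166, adjusted p = 1.44e-10). They ended at 22.5% and 23.9% of their control levels. HSPA1A (chromosome 6, 31815543 to 31817946), whose coding sequence is nearly the same as that of HSPA1B, was at 11.5 and 13.9 CPM and at 3.99 and 3.79 CPM (log2 fold change -1.71, SE 0.330, adjusted p = 0.00806). The split between these copies is uncertain, since fragments that fit both were not counted, and the HSPA1A call was lost with DESeq2 and without repeat 2 of the empty vector. Of the exon bases of HSPA1B, 36.6% also overlap ENSG00000285565, so its level is that of the remaining part.

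The other 5 called heat-shock genes had smaller changes on the log2 scale. HSPH1 (chromosome 13, 31134973 to 31162388), an HSP110 that exchanges nucleotide on HSP70, was at 231 and 239 CPM in the controls and at 141 and 110.4 CPM under the fusion (log2 fold change -0.90, SE 0.114, adjusted p = 5.72e-06). CHORDC1 (chromosome 11, 90200429 to 90223077), an HSP90 co-chaperone, was at 183 and 204 CPM and at 148 and 101 CPM (log2 fold change -0.64, SE 0.130, adjusted p = 0.0146). In both, repeat 2 of EWS-FLI1 was the lower one, and CHORDC1 was no longer called without it. HSP90AA1, the inducible HSP90 and the most abundant member in CPM, was at 3721 and 3607 CPM and at 2879 and 2413 CPM (log2 fold change -0.47, SE 0.0862, adjusted p = 0.00359). HSPA8, the constitutive HSP70, went from 1065 and 916 CPM to 748 and 616 CPM (log2 fold change -0.54, adjusted p = 0.0481). HSPB1, a small heat-shock protein, went from 202 and 181 CPM to 139 and 128 CPM (-0.52, adjusted p = 0.0155), which completed the 9. The call of HSPA8 was lost in 10 of 25 alternatives, among them 3 other scalings or tools. Other genes overlap 15.1% of the exon bases of HSPA8. Either control left out ended the calls of CHORDC1, HSPA8 and HSPB1, and control 1 left out that of HSP90AA1. HSPA8 was also lost without repeat 2 of EWS-FLI1 in WT or in cells without ARID1A.

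The other 21 heat-shock genes did not pass the test. HSP90AB1, the constitutive HSP90, had a mean of 2028 CPM in the controls and 1898 CPM under the fusion (log2 fold change -0.10, adjusted p = 0.894), and the mitochondrial chaperonin HSPD1 had 1021 and 905 CPM (-0.17, adjusted p = 0.786). The co-chaperone BAG3 had means of 77.9 and 60.3 CPM (log2 fold change -0.37, adjusted p = 0.390). AHSA2P, a pseudogene related to an HSP90 activator and not on the list, was called lower, from 90.1 and 99.7 CPM to 66.2 and 61.3 CPM (log2 fold change -0.58, SE 0.116, adjusted p = 0.0130), with 35.9% of its exon bases shared with USP34, and it was not called without either control.

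**Figure D3:**
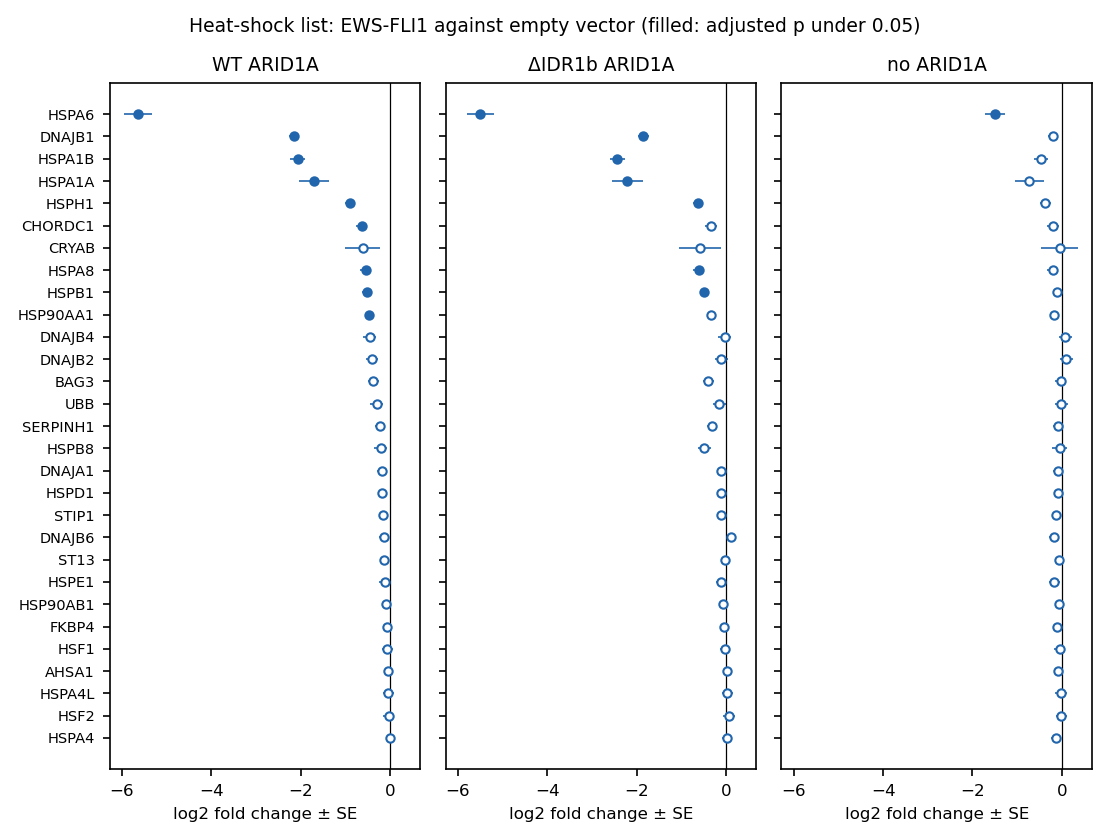
Log2 fold change with EWS-FLI1 ± SE (x axis) of 29 of the 30 heat-shock genes tested (y axis, ordered by the value in WT cells), in cells with WT, ΔIDR1b and no ARID1A. Filled points passed an adjusted p under 0.05: 9 in WT, 7 in ΔIDR1b and 1 in no ARID1A.

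Promoters were read from RefSeq (GRCh38.p14) over the 250 bases before each gene's start, and 35 of the 43 called genes had an entry. The start is that of RefSeq, which equals the start of the gene in the count table for 22 of the 35 and differs for 13. A heat-shock element was searched as 3 alternating GAA and TTC units spaced by 2 bases, on both strands. It was found in 3 of the 9 called heat-shock genes, in 2 of 16 heat-shock genes that were tested and not called (DNAJB6 and SERPINH1), in 0 of 24 promoters of genes called higher, and in 0.286% of 12582 promoters of all genes tested. The 3 promoters are shown because they belong to genes that fell, 5′ to 3′ with the heat-shock elements in capitals.
HSPA6 (chr1:161524290-161524539, plus strand): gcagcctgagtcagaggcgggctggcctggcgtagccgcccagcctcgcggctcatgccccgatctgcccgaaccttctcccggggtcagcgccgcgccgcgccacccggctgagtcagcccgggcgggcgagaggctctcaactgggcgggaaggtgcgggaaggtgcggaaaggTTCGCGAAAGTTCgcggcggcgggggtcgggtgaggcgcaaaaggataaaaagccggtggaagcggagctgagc
HSPA8 (chr11:123062137-123062386, minus strand): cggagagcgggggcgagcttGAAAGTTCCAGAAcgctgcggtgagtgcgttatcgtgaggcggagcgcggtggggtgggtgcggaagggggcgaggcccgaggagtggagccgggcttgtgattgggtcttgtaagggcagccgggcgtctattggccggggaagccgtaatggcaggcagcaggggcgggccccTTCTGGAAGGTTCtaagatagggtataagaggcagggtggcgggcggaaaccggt
CHORDC1 (chr11:90223050-90223299, minus strand): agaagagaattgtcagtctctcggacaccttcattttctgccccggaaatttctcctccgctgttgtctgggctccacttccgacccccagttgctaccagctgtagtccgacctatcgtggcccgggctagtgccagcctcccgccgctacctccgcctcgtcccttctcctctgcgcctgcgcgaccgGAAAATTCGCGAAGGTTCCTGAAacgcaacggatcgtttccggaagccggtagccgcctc
The element of HSPA6, the gene with the largest fall, lies 74 to 62 bases before the start, which is the same in both annotations. The RefSeq starts of HSPA8 and CHORDC1 lie 1094 and 28 bases inside the genes as counted. HSPA8 has 2 separate matches, and the capitals of CHORDC1 join 3 overlapping ones. The AP-1 motif TGANTCA also occurs in the HSPA6 promoter, and in 3.95% of all promoters.

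The ETS core CCGGAA was found in 4 of 24 promoters of genes called higher (16.7%), against 23.0% of all promoters, so its share among the risen genes was no larger than the background. The doubled core GGAAGGAA was found in 0 of 24, against 2.82% of all, and the cyclic AMP element TGACGTCA in 2 of 24 (CLSTN2 and IRF2BPL, 8.33%), against 2.74%. Motifs were searched on both strands, and the windows do not reach distant GGAA repeats, which were not analysed here. Of the 4 promoters with CCGGAA (KDM7A-DT, SLC35F2, IER2 and TRIB3), those of the noncoding RNA and of the immediate-early gene are shown as examples, with the core in capitals.
KDM7A-DT (chr7:140177011-140177260, plus strand): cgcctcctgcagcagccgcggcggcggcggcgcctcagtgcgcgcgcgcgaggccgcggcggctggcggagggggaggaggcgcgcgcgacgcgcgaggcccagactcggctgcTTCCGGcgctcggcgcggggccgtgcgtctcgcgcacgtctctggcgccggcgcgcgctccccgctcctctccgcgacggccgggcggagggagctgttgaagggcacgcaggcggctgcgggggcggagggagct
IER2 (chr19:13150161-13150410, plus strand): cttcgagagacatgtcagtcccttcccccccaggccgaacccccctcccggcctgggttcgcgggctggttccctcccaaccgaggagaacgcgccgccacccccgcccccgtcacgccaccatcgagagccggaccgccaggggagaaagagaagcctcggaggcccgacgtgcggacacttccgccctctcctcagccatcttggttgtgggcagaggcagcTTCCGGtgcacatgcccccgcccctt
In both the core lies on the strand opposite to the gene and is read as TTCCGG, 136 to 131 bases before the RefSeq start in KDM7A-DT and 26 to 21 bases before it in IER2. For IER2 both annotations give the same start, and for KDM7A-DT that of RefSeq lies 77 bases inside the gene as counted.

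Immediate-early genes, which are transcribed within minutes of a stimulus, did not move one way. Of 24 tested, 4 were called higher (KLF2, IER2, ZFP36 and JUNB) and 1 lower, 20.8% of the list against 0.221% of all genes tested, with a median log2 fold change of 0.04. The list was chosen with earlier results of these data known, so this share is not independent evidence. FOS (chromosome 14, 75278826 to 75282230), the partner of JUN proteins in AP-1, was at 72.1 and 64.5 CPM in the controls and at 44.6 and 43.3 CPM under the fusion (log2 fold change -0.64, SE 0.113, adjusted p = 0.00227). JUNB went the other way, from 173 and 155 CPM to 235 and 315 CPM (log2 fold change 0.74, SE 0.126, adjusted p = 0.00121), while JUN, the most abundant member, had means of 3255 and 2977 CPM (-0.13, adjusted p = 0.874). FOS was not called without control 1, nor JUNB and ZFP36 without control 2. The list's median was 0.23 without repeat 1 of EWS-FLI1 and -0.21 without repeat 2, and 2 genes were called higher without repeat 2 of the empty vector.

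Known EWS-FLI1 targets of Ewing sarcoma were mostly not called. On a list of genes activated in Ewing sarcoma, 0 of 31 tested passed the test in edgeR (8 were higher and 3 lower at an unadjusted p under 0.05, DESeq2 called 1 higher and 1 lower, and limma 0), and the median log2 fold change was 0.12. Over all 20377 genes tested, 724 were higher and 607 lower at that unadjusted p. Only 0.221% of all genes were called, so 0 calls in a list this short are near that share. NPY1R, a neuropeptide Y receptor, had means of 2.31 and 5.21 CPM (log2 fold change 1.17, adjusted p = 0.299), and the cyclin gene CCND1 30.6 and 45.5 CPM (0.57, adjusted p = 0.0805). NR0B1, a classical target beside a GGAA repeat, had means of 0 and 0.113 CPM and did not pass the filter. With repeat 1 of EWS-FLI1 left out, 2 genes of the list were called higher and 1 lower.

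Of 12 genes repressed by the fusion in Ewing sarcoma, 1 was called lower. CCN1, a matricellular protein and a target of the co-activator YAP, was at 607 and 534 CPM in the controls and at 397 and 369 CPM under the fusion (log2 fold change -0.57, SE 0.104, adjusted p = 0.00296). CCN1 was not called without control 1. The list's median was 0.03, and 1 of its genes was called higher when repeat 1 of EWS-FLI1 was left out. On a list of YAP and TEAD targets, CCN1 and GADD45A, a DNA damage and growth arrest gene (464 and 422 CPM against 327 and 321 CPM, log2 fold change -0.45, adjusted p = 0.0269), were the 2 of 26 called, with a median of -0.07. The forkhead factor FOXC1, on no list, was called lower with a log2 fold change of -0.45 (adjusted p = 0.0265). The GADD45A and FOXC1 calls were each lost in 7 of 25 alternatives, which include leaving out either control or any 1 library without ARID1A.

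Feedback genes of the ERK pathway had 0 calls among 19 tested (edgeR; 6 were higher and 3 lower at an unadjusted p under 0.05, DESeq2 called 1 higher, limma 0), with a median of 0.16. Over all 20377 genes tested, 0.221% were called, and 724 were higher and 607 lower at that unadjusted p. DUSP6, a phosphatase of ERK, had means of 0.596 and 2.68 CPM (log2 fold change 2.15, SE 0.608, adjusted p = 0.237). The list had 3 genes called higher without repeat 1 of EWS-FLI1. Lists around the risen genes had single calls: PTGS2 alone of 17 prostaglandin genes (median -0.03), THBD of 16 genes of coagulation and fibrinolysis (0.05), SGK1 of 14 genes of SGK1 and sodium channel control (-0.01), NTSR1 of 7 neuropeptide genes (0.10), and TRIB3 of 18 genes of endoplasmic reticulum stress (-0.04). The prostaglandin synthases PTGES2 and PTGES3 had log2 fold changes of -0.10 and -0.13. Another list member, PTGER3, went from 0.595 and 0.523 CPM in the controls to 1.66 and 1.82 CPM under the fusion and was not called. Of the 17 prostaglandin genes, 8 had a positive and 9 a negative value. At an unadjusted p under 0.05 (edgeR), 2 of them were higher and 0 lower. The coagulation list had 2 called higher without repeat 1 of EWS-FLI1.

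Only 0.221% of all genes tested were called, so 0 calls in a short list are near that share. Chromatin, growth and antiviral lists gave 0 calls with edgeR. These were 27 SWI/SNF subunits other than ARID1A (median -0.05, 0 at an unadjusted p under 0.05), 8 partners of FET fusions such as EP300 (0.02, 0 at an unadjusted p), 20 other ETS factors (0.06, 1 higher at an unadjusted p), 22 cell cycle genes (-0.01, 1 higher) and 18 interferon genes (0.02, 1 higher and 1 lower). DESeq2 and limma also called 0 in these lists, except for 1 cell cycle gene called higher by DESeq2. SMARCA4, an ATPase of the complex, had means of 474 and 459 CPM (log2 fold change -0.05, SE 0.0963). Without repeat 1 of EWS-FLI1, 1 ETS factor was called lower and 1 cell cycle gene higher, and without repeat 2, 1 interferon gene was called lower.

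Several of the risen genes (THBD, KLF2, RASIP1, APOLD1) are known from endothelium, the lining of blood vessels. Of 10 endothelial markers, 4 passed the filter on low counts and 0 were called (edgeR, DESeq2 and limma, and 0 at an unadjusted p under 0.05), against 0.221% of all genes tested with edgeR. Their summed level was 88.1 and 80.1 CPM in the controls and 71.7 and 98.7 CPM under the fusion, most of it EGFL7. PECAM1 and CDH5, the defining markers, were at or below 0.227 CPM in all 4 libraries, and EMCN had 0 counts. Markers of blood, fibroblasts and hepatocytes also gave 0 calls with the 3 tools (5, 5 and 2 tested; 1 fibroblast marker was lower at an unadjusted p). All 9 mitochondrial genes had a positive log2 fold change (median 0.23, 0 called with the 3 tools, 3 higher at an unadjusted p), with a summed level of 14460 and 11770 CPM against 16120 and 12990 CPM. Without repeat 1 of EWS-FLI1, 5 were positive and 4 negative (median 0.043), and without repeat 2 of the empty vector, 7 and 2 (median 0.049). Without repeat 2 of EWS-FLI1, 2 of them were called higher (median 0.39), and the part of this in the gene results was not tested.

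The 43 genes were then read in the other ARID1A states. Their libraries are not in the WT contrast, but they belong to the same fit and shaped its filter and estimate of the spread, so the choice of the 43 was not independent of them. In ΔIDR1b cells 35 genes were called (0.172% of those tested) and in cells without ARID1A 9 (0.0442%), both counts with FLI1 and EWSR1. Of the 43 genes called in WT cells, 42 had the same sign in ΔIDR1b, where 26 were also called, and 40 had the same sign without ARID1A, where 7 were also called. Over all genes tested the same sign was found in 55.1% and 51.5%. Conversely, all 33 other genes called in ΔIDR1b had the same sign in WT cells, and 26 passed there. In 16 of these 33 the change was larger in WT, which is 48.5%.

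The test of the difference itself, with no replicate block, found 0 genes between WT and ΔIDR1b (0% of those tested; edgeR, 741 at an unadjusted p under 0.05, 0 with DESeq2 and 0 with limma). HSPA6 stood at 26.3 and 22.3 CPM in the controls and at 0.566 and 0.487 CPM under the fusion in ΔIDR1b. The difference in its log2 fold change, WT minus ΔIDR1b, was -0.15 with a 95% interval of -1.31 to 1.02. For DNAJB1 the difference was -0.31 (-0.63 to 0.01), for HSPA1B 0.37 (-0.09 to 0.83) and for PTGS2 -0.11 (-0.51 to 0.30). The interval of HSPA6 is the widest of these 4. Without repeat 1 of EWS-FLI1 in WT, 26 genes passed this test, 23 of them with a more negative change in WT, and without repeat 2 of EWS-FLI1 in ΔIDR1b, 2 did.

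Between WT and no ARID1A, 5 genes differed in their response (0.0245% of those tested), EWSR1 among them. HSPA6 was at 11.2 and 12.3 CPM in the controls and at 4.26 and 4.06 CPM under the fusion in cells without ARID1A, a smaller fall than in WT from a lower starting level (difference in log2 fold change -4.15, SE 0.429, adjusted p = 3.22e-07). DNAJB1 was at 240 and 236 CPM and at 220 and 194 CPM (difference -1.95, SE 0.156, adjusted p = 7.69e-10). HSPA1B was at 537 and 584 CPM and at 421 and 396 CPM (difference -1.61, SE 0.227, adjusted p = 2.61e-04). All 3 chaperone genes thus fell more with EWS-FLI1 in WT cells than without ARID1A by edgeR. DESeq2 called 4 of the 5 genes, only 2 of them with a more negative change in WT, so 1 of these 3 was not called. With limma all 5 were called.

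PTGS2 was at 29.4 and 25.4 CPM in the controls and at 34.3 and 32.1 CPM under the fusion in cells without ARID1A, where its log2 fold change of 0.27 did not pass the test, and its rise was larger in WT (difference 1.25, SE 0.198, adjusted p = 0.00145). The remaining genes had differences that did not pass. Among the genes called in WT that have a symbol, NTSR1 had the largest of these (3.56, 95% interval 1.33 to 5.78), and THBD was called higher in all 3 states (in cells without ARID1A it went from 0.0743 and 0.0748 CPM to 0.852 and 2.07 CPM). The heat-shock list's median was -0.26 in WT, -0.10 in ΔIDR1b and -0.08 without ARID1A. Leaving out repeat 1 of EWS-FLI1 in WT, 48 genes passed this test, and without repeat 1 of the empty vector in cells lacking ARID1A, 8 did.

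The amount of introduced fusion also differed between the states. With EWS-FLI1, FLI1 in WT cells was at 3675 and 3462 CPM, 2.03 times the level without ARID1A and 1.88 times that in ΔIDR1b, and EWSR1 was 1.76 and 1.75 times as high. The level of the fusion and the ARID1A state therefore cannot be told apart in the comparisons of WT with the other states. With EWS-FLI1, FLI1 was at 1888 and 1906 CPM in ΔIDR1b and at 1830 and 1688 CPM without ARID1A. A difference in response between these states was not tested here.

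**Figure D4:**
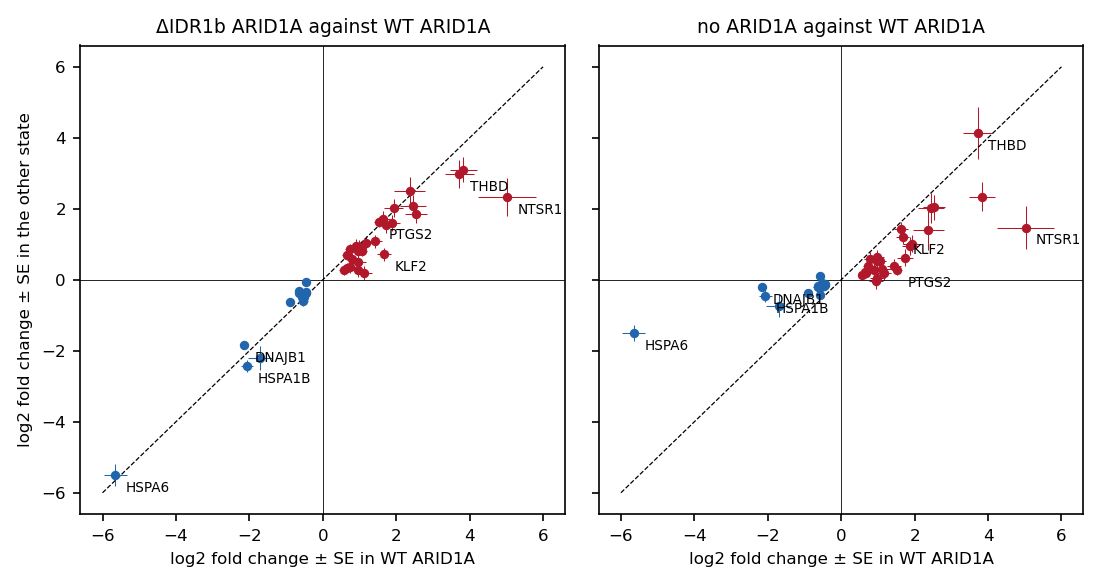
Log2 fold change with EWS-FLI1 ± SE in ΔIDR1b (left) and without ARID1A (right) on the y axis, against that in WT cells on the x axis, for the 41 called genes with a symbol. Red points rose and blue points fell in WT, the dashed line marks equal change, and without ARID1A HSPA6, DNAJB1 and HSPA1B lie far above the line while PTGS2 lies below it.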

How the data were processed

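PolyA RNA of 12 libraries was sequenced, 2 in each of 6 groups, and groups were taken from the sample titles. Per the file headers, the authors counted read pairs per gene name with featureCounts 2.0.1, using exons from release 41 of GENCODE (GRCh38, patch 13). Pairs needed both ends aligned, strand was not used, and pairs with several alignments or genes were left out. The deposited values are these raw counts. STAR, SAMtools and edgeR are named in the submitters' processing notes, and aligner settings are not given in the sources used here.

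Of 60645 gene names, 20377 passed filterByExpr (minimum count 10, minimum total 15). Counts were scaled by trimmed means (TMM) and fitted with 1 mean per group to all 12 libraries (edgeR 4.0.16, R 4.3.3), with 2-sided quasi-likelihood F-tests and Benjamini-Hochberg adjustment over all genes tested within each contrast. CPM are on the TMM-scaled library sizes. The standard error (SE) is the size of the log2 fold change divided by the square root of F. DESeq2 1.42.0 and limma 3.58.1 were alternatives, beside other scalings, filters, replicate blocks, removal of GC and length trends, and leaving out each library. GC content came from GENCODE transcripts for 96.9% of genes tested. Counting intervals (95%, exact) and floors of 3 counts hold for counting error alone, because PCR copies are not independent molecules. Without strand, reads of overlapping antisense genes cannot be told apart.

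All called genes could be named. Values in every library were given for the 12 largest rises and the 8 largest falls among called genes with a symbol, at least 0.5 CPM in the higher group and no overlap between groups, and for called list members. Some further list members were named as the most abundant or most changed. BAG3, NR0B1, HSPA7 and KDM7A were named after their values were seen. Most list members are given only in their list's counts and median. The members, lists and tests were chosen with earlier results of these data known.

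The procedure was tested on simulated data of 20377 genes. For EWS-FLI1 in WT it recovered 58% of genes changed 1.5-fold, 80% at 2-fold, 92% at 4-fold and 100% at 8-fold, with 10 false calls. For the difference between WT and no ARID1A it recovered 28%, 50%, 90% and 96%, with 7 false calls. Changed genes were drawn only from those above a minimum mean level, and each gene had the same simulated spread in all libraries. The larger difference between the WT repeats with EWS-FLI1 was not simulated, so these figures may not hold for the data.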

Additional observations from a re-analysis of the deposited data

Results flagged for a closer look

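The effect of EWS-FLI1 differed between cells with WT ARID1A and cells without ARID1A in 5 genes by the interaction test of edgeR (adjusted over all genes tested). DESeq2 called 4 of these 5, with 1 of the 3 chaperone genes not called, and limma called all 5. The difference in log2 fold change, WT minus no ARID1A, was -4.15 for HSPA6 (adjusted p = 3.22e-07), -1.95 for DNAJB1 (adjusted p = 7.69e-10), -1.61 for HSPA1B (adjusted p = 2.61e-04), 1.25 for PTGS2 (adjusted p = 0.00145) and 0.82 for EWSR1 (adjusted p = 6.17e-04). EWSR1 counts include the introduced fusion, whose FLI1 part was 2.03 times as high in WT as without ARID1A, so the ARID1A state and the level of the fusion cannot be told apart.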

How the results depend on the processing

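The count of genes changed with EWS-FLI1 in WT, 45 with FLI1 and EWSR1, became 75 with no filter on low counts, 26 with only the 4 WT libraries, 24 at a log2 fold change of at least 1 and 98 with GC and length trends removed. It ran from 24 to 230 when 1 library was left out (24 and 25 without an empty-vector library of WT, 128 and 230 without an EWS-FLI1 library of WT). The count for WT against no ARID1A ran from 5 to 48 and that for WT against ΔIDR1b from 0 to 26, and the latter was 6 with no filter. The other scalings, tools and filters kept all 3 counts within 1.5 times: DESeq2 gave 54, 4 and 0, and limma 46, 5 and 0.

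The labels do not say what equal repeat numbers share. Over 12290 genes, the differences between repeats had a correlation of -0.166 between the 2 WT groups. It was positive in all 6 pairs of groups with the same vector (0.0809 to 0.343) and negative in all 9 with different vectors, so repeats deviated partly together within a vector. The main results have no block, because the labels give no design that names one. The correlations were not what set this choice, and the fits with a block below show how the counts depend on it. A replicate block over all groups gave 44, 5 and 0 calls. A replicate block within each vector gave 260, 16 and 10, and 184, 27 and 14 with the GC and length trends also removed. All 10 and all 14 genes that differed between WT and ΔIDR1b had a more negative change in WT. That block within each vector ended the calls of TRIB3 and ENSG00000231393, and gave 12 heat-shock genes called lower (27 of 30 negative) and 5 of 9 mitochondrial genes called higher (median 0.391). Crossed numbers, a block added after seeing the data, gave 80 calls in WT.

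All 1073 log2 values of the 43 other called genes kept their sign under the alternatives. The 2 groups did not overlap in any of these genes, so leaving out 1 library could hardly reverse a sign. The kept signs are therefore not evidence of stability. Of the 43 genes, 18 were called in all alternatives and 25 were lost in at least 1. With 2 libraries a group, depth limits genes near the floor of 3 counts, and 1.5-fold changes are often missed.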
